A study of Mus musculus with 18 samples.

Results

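The interactions that the α-globin locus made with every other chromosome were described from 4 viewpoints on mouse chromosome 11. These were the CTCF site HS-38 (A4_HS38 in the files, chr11:32138079-32139000), the enhancers R1 (A1_R1, chr11:32145277-32146568) and R2 (A1_R2, chr11:32151060-32151883), and the promoter of the α-globin gene Hba-a1 (Hba-1, chr11:32182969-32183821), all on mm9. A member was any DpnII fragment outside chromosome 11 on which at least 1 ligation product with one of these viewpoints, called a reporter, was listed. There were 524684 such fragments, of 6119772 DpnII fragments outside chromosome 11 in the reference digest and of 658829 fragments that the same viewpoints listed on all chromosomes. The Hba-a2 promoter was not used, because molecules were listed under both promoters.

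In Capture-C, chromatin is fixed, cut with DpnII and ligated, so that fragments close together in the nucleus become joined, and oligonucleotides then enrich the products that hold a viewpoint. Most products join 2 places on one chromosome (in cis), and the rest join places on different chromosomes (in trans). Each chromosome occupies its own territory, and trans contacts are commonly most frequent among gene-rich, active and mostly short chromosomes. The α-globin genes encode the α chains of haemoglobin and are driven in erythroid cells by upstream enhancers including R1 and R2, and CTCF sites such as HS-38 and HS + 44/ + 48 lie to either side of them.

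The study asked how CTCF sites downstream of the α-globin genes shape the domain around them, and it made 18 libraries from Ter119+ erythroid cells of spleens of adult, phenylhydrazine-treated C57BL/6 mice, kept on a C57BL/6J background by the study's methods. Phenylhydrazine destroys red cells and expands their precursors in the spleen. Experiment 1 held 3 libraries of WT mice and 3 of mice lacking the HS + 44 and HS + 48 CTCF sites (D4448, written ∆44/48), with all 4 viewpoints. Experiment 2 held 3 libraries each of WT, of mice without the CTCF site θ1 (Dtheta1, ∆θ1), without θ2 (Dtheta2, ∆θ2), and without both (Dt1t2, ∆θ1θ2), with Hba-a1 as the α-globin viewpoint used here. The deletions were made by CRISPR/Cas9 in embryonic stem cells or zygotes and carried as homozygous alleles, and the labels give neither sex nor substrain. The 2 experiments differ in depth and viewpoints and were not compared with each other. The files used here hold interaction counts and no RNA levels, so the erythroid identity of the cells was not checked against marker genes here and rests on the Ter119 selection.

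The α-globin viewpoints held 116523 to 164676 trans reporters per WT library of experiment 1 and 69838 to 108480 per ∆44/48 library. In experiment 2, Hba-a1 held 3565 to 9658 in WT, 554 to 1478 in ∆θ1, 4309 to 12557 in ∆θ2 and 3629 to 7896 in ∆θ1θ2. Reporters were spread thinly, since 89.4% of the member fragments were listed in 1 sample only, 79.9% of listings held exactly 1 reporter, and 235 fragments were listed in at least 6 samples. One library stood apart. ∆44/48 replicate 1 had 1.84 reporters per listed trans fragment, against 1.23 to 1.26 in the other 5 libraries of experiment 1, and its counts per 1 Mb bin differed from those of replicates 2 and 3 by a chi-square of 3.49 and 3.63 per degree of freedom, against 1.48 to 1.64 for the other pairs of replicates in experiment 1. Many results for ∆44/48 are therefore also given by replicate or without it.

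A few fragments did not follow this thin spread, and the sequences of 2 of them are shown because they lie in the bins that passed between viewpoints, described further on. A further 2 are shown because all reporters of one came from R2 and the other held the most reporters in experiment 2. The fragment with the most reporters in experiment 1 was chr17:26438451-26438723, between genes and 16002 bp from Luc7l, with 525 reporters over 6 libraries. It lies near Hba-ps4 (chr17:26423308-26424006), an α-globin pseudogene. Of its reporters, 142 came from HS-38, 189 from R1, 194 from R2 and 0 from Hba-a1. The WT libraries held 135, 96 and 91, and the ∆44/48 libraries 19, 92 and 92, so ∆44/48 replicate 1 was far below the other 5. A BLAST search of the α-globin locus found 93.75% identity over 224 aligned columns to a stretch of chromosome 11 that lies 1719 bp from Hbq1b, a θ-globin gene. Both are printed 5′ to 3′ in the orientation of chromosome 17 (the chromosome 11 stretch is on the minus strand), with the bases of the 14 differing columns in capitals and gaps closed.
chr17:26438448-26438667, plus strand: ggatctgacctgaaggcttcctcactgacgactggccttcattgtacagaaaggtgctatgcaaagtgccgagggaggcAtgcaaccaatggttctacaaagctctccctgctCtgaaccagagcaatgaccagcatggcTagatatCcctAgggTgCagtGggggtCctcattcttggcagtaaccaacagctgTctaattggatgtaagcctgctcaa
chr11:32189503-32189726, minus strand: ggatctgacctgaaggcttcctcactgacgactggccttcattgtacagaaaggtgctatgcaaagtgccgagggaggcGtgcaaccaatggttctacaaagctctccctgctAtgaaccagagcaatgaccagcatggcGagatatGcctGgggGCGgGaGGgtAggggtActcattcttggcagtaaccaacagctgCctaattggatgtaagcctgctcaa
DpnII fragments that overlap the chromosome 11 stretch were themselves listed from the viewpoints. In WT, 2 such fragments together carried 929 reporters from HS-38, 1267 from R1, 1237 from R2 and 2093 from Hba-a1. The stretch has its DpnII site at its edge, so 1 of them overlaps it only there, and their separate counts are not given here. Whether reads of one place were assigned to the other was not tested.

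The second fragment, chr3:79362426-79362524, lies in an intron of Fnip2, which encodes a folliculin-interacting protein, and held 227 reporters, of which 143 came from HS-38. In WT, HS-38 placed 28, 37 and 23 reporters on it, R1 placed 5, 10 and 6, R2 placed 5, 7 and 2, and Hba-a1 placed 6, 5 and 3, so that each HS-38 value lay above all values of the other viewpoints. Part of it has 85.2% identity over 81 columns to a stretch inside Nprl3 that starts beyond the end of the HS-38 viewpoint fragment, and it has 13 matches in the locus in all. The pair is printed in the same way, with the 12 differing columns in capitals.
chr3:79362423-79362500, plus strand: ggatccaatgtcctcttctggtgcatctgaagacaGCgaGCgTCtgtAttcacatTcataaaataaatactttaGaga
chr11:32139265-32139343, plus strand: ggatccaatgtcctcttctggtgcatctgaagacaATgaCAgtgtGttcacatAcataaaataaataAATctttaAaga
On the chromosome 11 stretch next to HS-38 no fragment was listed from any of the 4 viewpoints. The study describes an exclusion zone around its viewpoints, and whether one applies to these files at this stretch was not tested.

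The third fragment and the last of the 5 were listed from several viewpoints. chr2:173237396-173237684, between genes, held 182 reporters, with 52 from HS-38, 38 from R1, 44 from R2 and 48 from Hba-a1. chrX:97976074-97976652, in an intron of Dlg3, a synaptic scaffold gene, held 81, of which 55 came from R2. The other one, chr15:23623798-23623872, between genes and 219625 bp from Cdh18, held 147 reporters, all from R2, and had no match in the locus. Its sequence and that of the fragment with the most reporters in experiment 2, which held 27 over 10 of 12 libraries and lies 26461 bp from Irs2, are given with the flanking DpnII sites in capitals.
chr15:23623796-23623874, plus strand: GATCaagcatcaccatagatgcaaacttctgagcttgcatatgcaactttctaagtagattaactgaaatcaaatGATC
chr8:10960470-10960521, plus strand: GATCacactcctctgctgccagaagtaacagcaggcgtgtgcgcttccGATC
By way of scale, the sixth fragment of experiment 1 held 70 reporters, the median listed fragment held 1, and 13 of 485432 held at least 50. The other 4 leading fragments of experiment 2 held 21, 19, 16 and 10 reporters. The last of these was again the Fnip2 fragment, tied at 10 with the sixth fragment.

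The share of reporters in trans was 25.6%, 30.5% and 29.6% in the WT libraries of experiment 1. In ∆44/48 it was 40.9%, 28.0% and 23.9%, so that the groups overlapped and the highest value was that of replicate 1. WT averaged 28.6 ± 2.59% (SD over 3 libraries) and ∆44/48 30.9 ± 8.89%, and an exact two-sided permutation test gave p = 0.9, also 0.9 when adjusted over 4 comparisons. Without ∆44/48 replicate 1 the difference changed sign to −2.67 percentage points. By viewpoint, the WT share was 26.2 ± 2.57% from HS-38, 25.9 ± 2.33% from R1, 31.4 ± 2.60% from R2 and 29.9 ± 2.78% from Hba-a1 (SD, n = 3 each), and these differences were not tested.

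From Hba-a1 in experiment 2, trans reporters made up 26.3%, 26.9% and 26.2% in WT. They made up 35.4%, 34.4% and 34.8% in ∆θ1 and 28.5%, 27.5% and 28.8% in ∆θ2, so that every ∆θ1 and every ∆θ2 library lay above all WT libraries. The differences of 8.39 and 1.80 percentage points had an exact two-sided p of 0.1 each, the smallest that 3 against 3 samples allow, and 0.2 after adjustment over the 4 comparisons. In ∆θ1θ2 the share was 25.9%, 27.2% and 27.0%, overlapping with WT (exact p = 0.6, adjusted 0.8). The ∆θ1 libraries were also the shallowest, and with listed fragments in place of reporters the ∆θ1 difference turned to −1.54 percentage points. The part of depth in the ∆θ1 share was not tested.

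**Figure D1:**
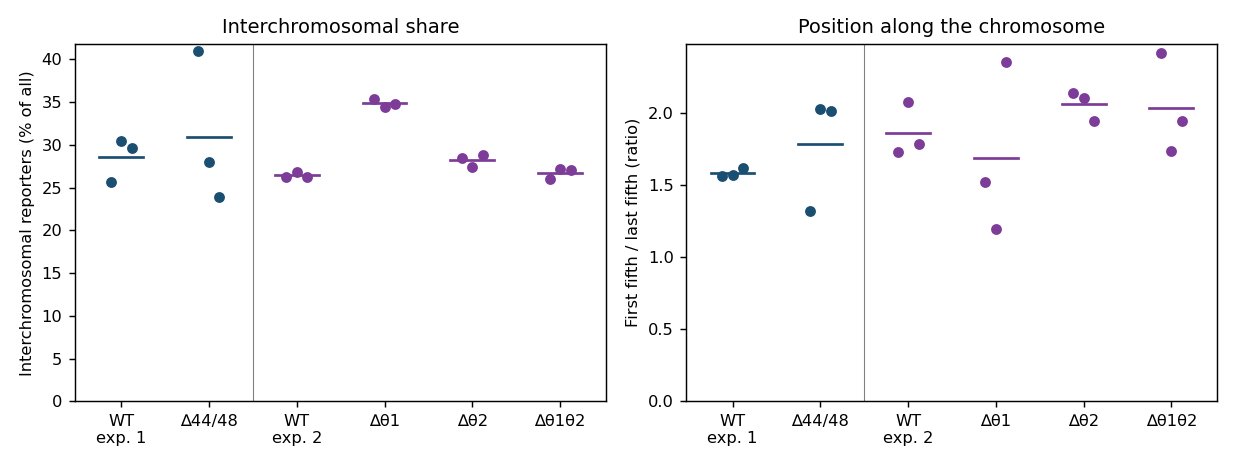
Share of Capture-C reporters in trans (left, % of all reporters) and ratio of reporter density in the first to the last of 5 equal parts of the other chromosomes (right), for the α-globin viewpoints (4 summed in experiment 1, Hba-a1 in experiment 2). Each point is 1 library and each bar the mean of 3. The 3 ∆θ1 libraries sit between 34.4% and 35.4%, above all WT libraries of experiment 2, and ∆44/48 replicate 1 stands at 40.9% on the left and at 1.32, below the other 5 libraries of its experiment, on the right.

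Reporters were next counted by chromosome and divided by the chromosome's share of DpnII fragments, a ratio called enrichment here, with 1 as the mean over all chromosomes but 11. In WT of experiment 1, with the 4 viewpoints summed, chromosome 19 was the highest nuclear chromosome after this scaling, at 1.94, 1.95 and 1.96 (mean 1.95). Chromosome 17 followed at 1.55 ± 0.00894 and chromosome 9 at 1.22 ± 0.0217, after which came 15 (1.15 ± 0.0326), 18 (1.13 ± 0.0172), 13 (1.13 ± 0.0140), 16 (1.12 ± 0.00219), 7 (1.07 ± 0.0132), 8 (1.07 ± 0.0170) and 10 (1.05 ± 0.0139), each with SD and n = 3. Chromosomes 5 (1.01 ± 0.00484), 6 (0.986 ± 0.00699), 12 (0.974 ± 0.0442), 4 (0.950 ± 0.00688), 2 (0.939 ± 0.00744) and 14 (0.925 ± 0.0135) lay near the mean. Chromosomes 3 (0.817 ± 0.0171) and 1 (0.805 ± 0.0166) were low, and X was the lowest at 0.362 ± 0.00194. Neighbours in this order from 15 to 16, from 7 to 10, from 6 to 14, and 3 with 1 overlapped in their libraries, whereas 19, 17, 9, 5 and X each stood clear of their neighbours. Across the 19 chromosomes, Spearman's rho of enrichment was −0.84 with chromosome length and 0.48 with protein-coding genes per Mb, as a description over points that share the same libraries. The mitochondrial genome, with few DpnII sites, held 26, 21 and 22 reporters in the 3 WT libraries, which is 21.7 to 38.0 times its share of fragments, and it is present in many copies per cell. Chromosome Y stood at 0.884 ± 0.0995 in WT, and the sex of the animals was not given. In experiment 2, chromosome 19 was again the highest of the nuclear chromosomes from Hba-a1, on the mean of each group, in WT at 2.29 to 2.72, in ∆θ1 at 1.68 to 2.32, in ∆θ2 at 2.01 to 2.25 and in ∆θ1θ2 at 2.20 to 2.53.

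**Figure D2:**
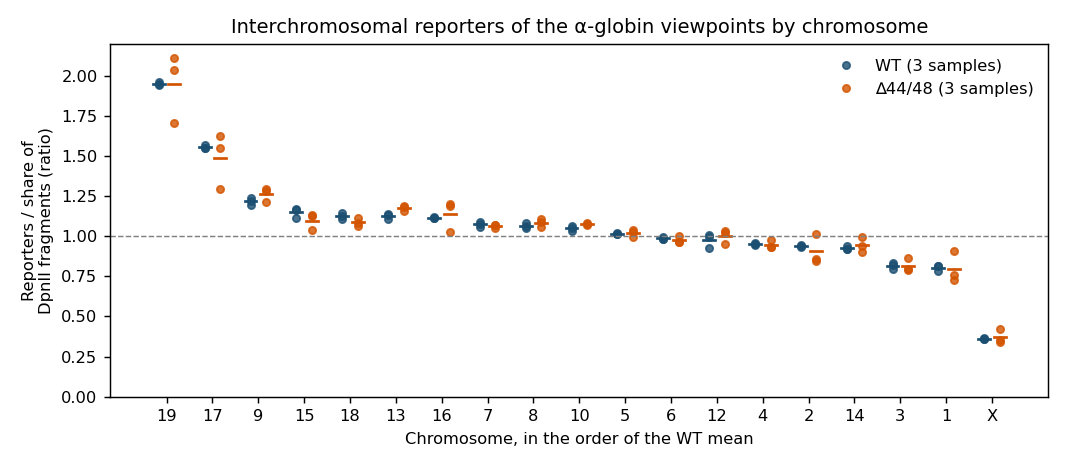
Enrichment of trans reporters of the 4 α-globin viewpoints on each chromosome (reporters as a ratio to the chromosome's share of DpnII fragments) in WT and ∆44/48 of experiment 1. Each point is 1 library, short bars are means of 3, and the dashed line marks the mean over all chromosomes but 11. Chromosome 19 lies near 1.95 and X near 0.36 in WT, and the ∆44/48 points lie on both sides of the WT points.

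No chromosome passed the test for a changed share of trans reporters in any deletion. By edgeR's quasi-likelihood test with a threshold of 0.01 on the adjusted p, 0 of 19 chromosomes (0% of those tested) passed in ∆44/48, in ∆θ1, in ∆θ2 and in ∆θ1θ2, each against its own WT. At an unadjusted p under 0.05 there were 1, 3, 2 and 0, and DESeq2 called 0 in all 4. Without ∆44/48 replicate 1, however, 5 chromosomes passed, with chromosomes 1 and 2 lower in ∆44/48 (log2 fold changes −0.12 and −0.14) and 16, 19 and 9 higher (0.09, 0.09 and 0.08). The share of trans reporters on X was 2.57% to 2.59% in WT of experiment 1 and 2.99%, 2.53% and 2.42% in ∆44/48. With all libraries, no deletion was apart from its WT in this share (exact permutation tests, adjusted p 0.8 to 1). The overlap of ∆44/48 rested on replicate 1, since replicates 2 and 3 lay below all WT libraries.

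Within chromosomes, reporters were counted in 1 Mb bins. Of 2444 bins described in WT of experiment 1, the median enrichment was 0.763 and the 90th percentile 1.85, and 205 bins exceeded 2. These made up 8.39% of bins and held 25.1% of the reporters. The 5 highest lay on chromosomes 19, 17 and 13, and all hold many genes. The bin from 5 to 6 Mb of chromosome 19 reached 9.51, 9.66 and 11.1 in the 3 WT libraries, with 1710 reporters in all, and holds 51 protein-coding genes, among them Rela, a subunit of NF-κB, and Cfl1, which encodes the actin-severing protein cofilin. The bin from 4 to 5 Mb of chromosome 19 stood at 7.87 ± 0.479, 6 to 7 Mb of chromosome 19 at 6.84 ± 0.564, and 23 to 24 Mb of chromosome 13 at 6.81 ± 0.113 (SD, n = 3 each). The last bin holds part of the Hist1 cluster of replication-dependent histone genes, and there the window chr13:23600001-23700000 reached 27.7 ± 0.427 with 447 reporters, of which no fragment held more than 11.

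The bin from 26 to 27 Mb of chromosome 17 stood at 7.58 ± 1.41 in WT (SD, n = 3), and it is the one that holds the fragment near Hba-ps4. That fragment supplied 322 of the 383 WT reporters of the window chr17:26400001-26500000. Other parts of the bin were high as well, with 268 reporters and an enrichment of 16.5 ± 4.68 in its first 100 kb, where no fragment held more than 9. From Hba-a1, which placed 0 reporters on the fragment, the whole bin stood, in rising order, at 4.72, 5.21 and 5.36, against 7.28, 7.50 and 11.8 from HS-38.

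The 5 lowest bins with at least 1000 DpnII fragments were 27 to 28, 28 to 29, 29 to 30 and 145 to 146 Mb of X and 8 to 9 Mb of chromosome 7, with 0 to 5 reporters each over the 3 WT libraries. How many of their fragments a read can be placed on was not measured.

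Enrichment rose with gene content. In bins ranked into 5 equal classes by their number of protein-coding genes, WT reporters stood at 0.578 ± 0.00643 in the poorest class, then 0.689 ± 0.0132, 0.941 ± 0.00579 and 1.16 ± 0.00849, and at 1.62 ± 0.0279 in the richest (SD, n = 3 each). Over bins, rho was 0.57 with the number of genes and 0.64 with GC content, which themselves had a rho of 0.68, so the 2 cannot be told apart here. Counting each listed fragment once gave almost the same order of bins (rho 0.99), and the 4 viewpoints shared much of it, with rho from 0.79 to 0.86 between pairs that come from the same libraries. The ratio of reporter density in the richest to the poorest class was 2.89, 2.75 and 2.76 in WT and 2.03, 2.95 and 3.17 in ∆44/48. There replicate 1 lay below all WT libraries and replicates 2 and 3 above them, so that the overlap rested on replicate 1. In experiment 2 it was 4.49, 4.62 and 5.40 in WT, 3.51 to 4.76 in ∆θ1, 3.64 to 4.61 in ∆θ2 and 4.18 to 5.68 in ∆θ1θ2, and every deletion overlapped its WT (exact permutation tests, adjusted p 0.6 to 1).

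Genes of the erythroid programme were then placed on this map by counting reporters within 100 kb of each gene's middle. The list held 87 names, of which 66 could be measured outside chromosome 11 and the captured β-globin and mitoferrin loci. Their median enrichment in WT was 2.63, with medians of 2.88 to 3.16 in the single libraries, and 46 of 66 (69.7%) exceeded 2. Of all 20371 protein-coding genes outside chromosome 11, whose median was 1.12, 26.0% did. Compared with windows of the same number of genes, the erythroid windows had a median ratio of 2.20, and 58 of 66 stood above 1. The list was compiled by hand and is described here with no test.

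Among the highest erythroid windows was that of Ank1, which encodes the red cell ankyrin that ties the spectrin skeleton to the membrane, at 17.7, 11.03 and 13.4 in the 3 WT libraries, in a window with only 2 genes. Pim1, a kinase gene, stood at 12.5, 12.5 and 12.3. Both lie in the top percentile of genes.
Among the genes of the list that handle iron, Fth1 (ferritin heavy chain) stood at 9.78 ± 0.383, Ftl1 (ferritin light chain) at 7.38 ± 0.450, Ncoa4 (the ferritin autophagy receptor) at 6.64 ± 0.715 and Tfrc (the transferrin receptor) at 6.26 ± 0.600 (SD, n = 3 each), 4 genes picked with their values known. Among transcription factors, Klf1 stood at 7.67 ± 0.878, Gata1 at 6.18 ± 0.521, Gfi1b at 4.82 ± 0.0957, Nfe2 at 4.02 ± 0.612 and Tal1 at 2.43 ± 0.745. The list holds further transcription factors whose values are not given here, so these do not stand for the class. The Gata1 window was high although X as a whole was the lowest chromosome.
Of receptor and red cell membrane genes, Epor, the erythropoietin receptor, was at 5.00 ± 0.126, Spnb1, β-spectrin, at 4.57 ± 0.679, and Spna1, α-spectrin, at 0.987 ± 0.210. At the low end Alas2, the erythroid enzyme of the first step of haem synthesis, stood at 0.800, 0.636 and 0.825 on X. These values were low for the list but above X as a whole, which stood at 0.362. Hebp1, a haem-binding protein, stood at 0.753 ± 0.389.

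Other gene classes were described in the same way, with no test between lists. Of 41 neuronal genes, 0 exceeded 2, and their median was 0.695. Housekeeping genes had a median of 1.94, with 16 of 34 above 2. Of the housekeeping genes 29 of 34 (85.3%) stood above the median of all genes, against 60 of 66 (90.9%) of the erythroid genes. Against windows of the same number of genes, the median ratio was 1.42 for housekeeping genes, with 23 of 34 above 1, and 0.857 for neuronal genes, with 15 of 41. The 928 olfactory receptor genes stood at a median of 0.624 and the 330 vomeronasal receptor genes at 0.592. Olfactory receptor windows held a median of 8 genes. Zinc finger (Zfp) genes, 346 in all, stood at 1.43. The 55 genes of Hist1, which share a few neighbouring windows, had a median of 14.2.

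**Figure D3:**
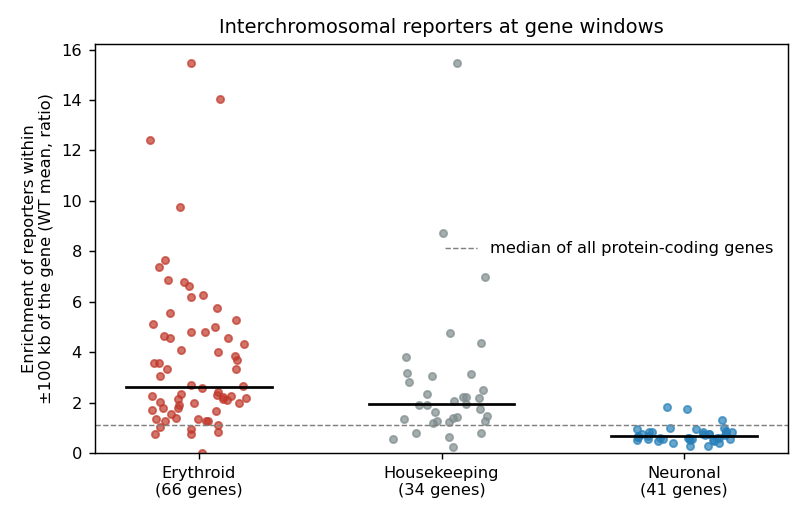
Enrichment of α-globin trans reporters within 100 kb of the middle of each gene, as the mean of the 3 WT libraries of experiment 1. Each point is 1 gene, black bars are list medians (2.63 for 66 erythroid, 1.94 for 34 housekeeping and 0.695 for 41 neuronal genes), and the dashed line is the median of all protein-coding genes outside chromosome 11, 1.12.

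Reporter density also varied with the place along the chromosome, and here the α-globin viewpoints differed from the other captured loci. The mouse chromosomes have their centromere at the start, and the α-globin locus lies near 32 Mb of chromosome 11, Slc25A37 (mitoferrin, an iron carrier of mitochondria) at chr14:69902454-69903469, and Hbb-b1 (a β-globin gene) at chr7:110961967-110962817. On the chromosomes other than 7, 11 and 14, WT α-globin reporters of experiment 1 stood at 1.25 ± 0.0143 times the mean density in the first of 5 equal parts of the chromosomes, then 1.21 ± 0.00603, 0.918 ± 0.00706 and 0.855 ± 0.00748, and at 0.792 ± 0.00512 in the last (SD, n = 3 each). Reporters of Slc25A37 ran the other way, from 0.801 ± 0.0128 to 1.22 ± 0.00518, as did those of Hbb-b1, from 0.719 ± 0.0216 to 1.38 ± 0.0217.

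The same was seen in all libraries with the Hba-a1 viewpoint, which both experiments share. Its ratio of the first to the last part was 1.20 at the lowest, 1.80 at the median and 2.38 at the highest of 18 libraries. For Slc25A37 the ratio ran from 0.466 over 0.613 to 0.718, and for Hbb-b1 from 0.313 over 0.444 to 0.655, so the ranges did not overlap. Within libraries, Hba-a1 was higher than Slc25A37 by 1.56 ± 0.35 on the log2 scale and higher than Hbb-b1 by 1.97 ± 0.43 (SD, n = 18), in 18 of 18 libraries each (paired sign-flip permutation test with 100000 resamples, two-sided p = 4e-05, adjusted over 2 tests 4e-05). This comparison was chosen after seeing the data. The viewpoints differ in chromosome as well as in position along it, and with 3 loci these cannot be told apart.

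Deletions were compared in the ratio of the first to the last part over all chromosomes but 11 and Y, so with 7 and 14 included, and its values differ slightly from those above. With the α-globin viewpoints, WT of experiment 1 stood at 1.56, 1.57 and 1.62 and ∆44/48 at 1.32, 2.03 and 2.02, so that replicate 1 lay below WT and replicates 2 and 3 above it (exact permutation p = 0.4, adjusted 0.8). The difference of means from WT was 0.205 with replicate 1 and 0.440 without it. In experiment 2 the WT ratios were 1.73, 2.08 and 1.78, against 1.20 to 2.35 in ∆θ1, 1.95 to 2.14 in ∆θ2 and 1.74 to 2.42 in ∆θ1θ2, all overlapping (adjusted p = 0.8 each).

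**Figure D4:**
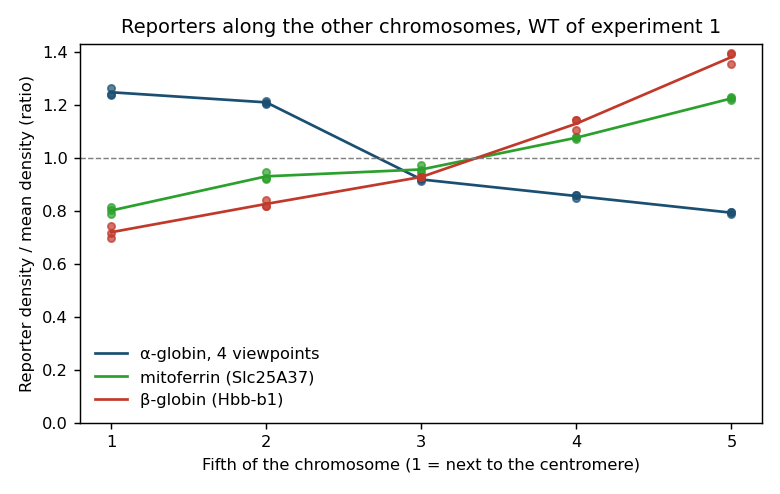
Density of trans reporters in WT of experiment 1, relative to the mean over the chromosomes other than 7, 11 and 14, in 5 equal parts of the chromosomes from the centromere (1) to the far end (5). Points are libraries and lines are means of 3. The α-globin line falls from 1.25 to 0.792, whereas the Slc25A37 line rises from 0.801 to 1.22 and the Hbb-b1 line from 0.719 to 1.38.

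Single bins, counted from the same reporters as these ratios and so no separate support for them, also differed between viewpoints. In WT of experiment 1, 177 of 2188 bins (8.09%) passed between the α-globin viewpoints and Slc25A37 by edgeR, 50 higher and 127 lower from α-globin, and 480 of 2189 (21.9%) between α-globin and Hbb-b1, 211 higher and 269 lower. With 1 replicate left out, 108 to 137 bins passed against Slc25A37 and 317 to 327 against Hbb-b1. DESeq2 also called fewer bins against Hbb-b1. Of the 50 higher than Slc25A37, 38 lay in the first part, and of the 127 lower, 79 lay in the last. Those parts held 390 and 447 of the tested bins. Against Hbb-b1, 107 of the 211 higher bins lay in the first part and 169 of the 269 lower ones in the last, with 390 and 448 tested bins there. Of 17 chromosomes, 9 (52.9%) passed against Slc25A37 and 14 (82.4%) against Hbb-b1, led by chromosome 19 (log2 differences 0.57 and 1.00), chromosome 17 (0.46 and 0.64) and chromosome 18 (0.21 and 0.35) on the higher side. Lower in both comparisons were chromosomes 3 (−0.25 and −0.32), 2 (−0.23 and −0.29), 4 (−0.19 and −0.20), 1 (−0.18 and −0.37) and 5 (−0.10 and −0.16). Against Hbb-b1 alone, X (−0.30) and chromosome 6 (−0.09) also passed on the lower side. Without WT replicate 1, the 9 chromosomes against Slc25A37 fell to 0.

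The bins with the smallest adjusted p against Slc25A37 were lower from α-globin. From 95 to 96 Mb of chromosome 3, α-globin stood at 1.71, 2.07 and 2.34 and Slc25A37 at 5.99, 6.24 and 7.33 (log2 difference −1.69, adjusted p = 3.01e-10 by edgeR). The others were 127 to 128 Mb of chromosome 10 (1.52 ± 0.102 and 5.33 ± 0.647, log2 difference −1.80) and 120 to 121 Mb of chromosome 6 (1.72 ± 0.0564 and 5.82 ± 0.606, log2 difference −1.74), with SD and n = 3. Each of these bins was also at 2.77 or more in every library from Hbb-b1. Against Hbb-b1, the 3 leading bins were higher from α-globin, and 2 of them were the top bins of chromosome 19. From 5 to 6 Mb, Hbb-b1 stood at 2.06, 2.12 and 2.91 (log2 difference 2.08, standard error 0.15, adjusted p = 4.88e-42 by edgeR), and the bins at 26 to 27 Mb of chromosome 17 and 4 to 5 Mb of chromosome 19 had log2 differences of 2.14 and 1.87. All these tests treat viewpoints of the same libraries with the sample as a block and were chosen after seeing the data.

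Among the α-globin viewpoints themselves few bins passed. Against HS-38 in WT, R1 had 0 of 2427 bins called (0%, and 0 by DESeq2). With an unadjusted p under 0.05, 82 of these bins passed, where a share of 0.05 would pass if nothing differed. R2 had 1 of 2437 (0.041%), which was the bin from 79 to 80 Mb of chromosome 3 (log2 difference −1.81, standard error 0.30, adjusted p = 3.27e-06 by edgeR). Hba-a1 had 2 of 2435 (0.0821%), the same bin (−1.67) and the bin from 26 to 27 Mb of chromosome 17 (−0.76, adjusted p = 0.00387). DESeq2 called 0 bins for R2 and 0 for Hba-a1, and counting each listed fragment once also gave 0 for both. In the chromosome 3 bin HS-38 stood at 3.25, 4.13 and 4.53, above R2 at 0.935 to 1.23. These are the bins of the Fnip2 fragment and of the fragment near Hba-ps4 printed above, and with the 100 fragments with the most reporters left out, the number of bins called was 0 for R2 and 0 for Hba-a1. No chromosome passed in R1, R2 or Hba-a1 against HS-38 (0 of 19, 0%, with 1, 3 and 1 at an unadjusted p under 0.05).

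Between ∆44/48 and WT, 1 of 2450 bins passed the threshold by edgeR (0.0408%), and it was higher in ∆44/48. At an unadjusted p under 0.05 there were 106 of the 2450, where a share of 0.05 would pass if nothing differed. DESeq2 called 1. Across all bins, enrichment in WT and ∆44/48, with all replicates, had a rho of 0.90. From Hba-a1 in experiment 2, at lower depth, the rho with WT was 0.42 for ∆θ1, 0.67 for ∆θ2 and 0.62 for ∆θ1θ2.

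Without ∆44/48 replicate 1, 4 bins passed. Among these were the bins from 15 to 16 Mb of chromosome 5 (log2 fold change −1.35), 107 to 108 Mb of chromosome 7 (0.74) and 32 to 33 Mb of chromosome 12 (0.50). With all 3 replicates these 3 had log2 fold changes of −0.97, 0.55 and 0.31 in the same direction and did not pass.

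In experiment 2 no bin passed. There were 0 of 652 bins (0%) in ∆θ1, 0 of 1419 (0%) in ∆θ2 and 0 of 1092 (0%) in ∆θ1θ2 by edgeR, and 0 by DESeq2 in each. At an unadjusted p under 0.05 there were 34, 47 and 41 of them, where a share of 0.05 would pass if nothing differed. At these depths a bin was tested when it held at least 10 reporters over 6 libraries, and a bin that did not pass is not shown to be alike in both groups. Reporters per listed trans fragment, a measure of repeated hits, were 1.16, 1.10 and 1.08 in WT and 1.17, 1.20 and 1.29 in ∆θ1θ2, where all 3 lay above all WT libraries (exact two-sided p = 0.1, adjusted 0.4). In ∆θ1 and ∆θ2 this value overlapped with WT (adjusted p = 0.9 and 0.4).

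Bins within 1 Mb of the captured β-globin and mitoferrin fragments were left out of these shares, since the same capture targets those fragments and could enrich the bins. Whether it raised α-globin reporters there was not tested. In WT of experiment 1 the α-globin viewpoints stood at 0.926 to 1.92 there (means of 3 libraries in 6 bins), with the highest value at 70 to 71 Mb of chromosome 14, next to Slc25A37.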

How the data were processed

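NG Capture-C was performed on 18 samples in 6 groups of 3, with DpnII 3C libraries and oligonucleotide capture. Per the paper's methods, the authors used Trim-galore for trimming and FLASH to join read pairs, cut the reads at DpnII sites in silico, placed them with Bowtie and removed PCR duplicates, and the deposited files hold whole-number counts of reporters per viewpoint and DpnII fragment on mm9, with no normalisation and with fragments without a reporter not listed. Groups came from the titles. Columns of other samples left out: 0.

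The mm9 genome was digested at DpnII sites and reporters were summed by chromosome, 1 Mb bin and gene window. Bins within 1 Mb of a captured fragment on chromosomes 7 or 14 were left out. Bins with at least 10 reporters were tested with edgeR 4.0.16 in R 4.3.3 (quasi-likelihood, trans reporters as library size, Benjamini-Hochberg, threshold 0.01), and DESeq2 1.42.0 was an alternative. Expected reporters are trans reporters times the share of fragments. Single values were compared by exact permutation tests. Sequence matches used BLAST 2.17.0, and summaries used Python 3.11.15, pandas 2.3.3, NumPy 2.4.6 and SciPy 1.17.1. Models were tested on simulated data.

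The contacts and the gene lists were chosen with earlier results of these data known. The text names all chromosomes, at most 3 bins per comparison with the smallest adjusted p past the threshold, the 5 highest and the 5 lowest bins of WT, and the 5 fragments with the most reporters in each experiment. Some genes and 1 bin that this rule covers are not reported here. Genes named within bins and the comparison with Slc25A37 and Hbb-b1 were chosen after seeing the data. Samples with the same replicate number did not deviate together (correlations −0.04 to 0.02), so the numbers were not treated as pairs. No pair of replicates looked like repeats of 1 library. Enrichments carry an SD over libraries, and counting error alone is large where a bin or window holds few reporters. The series text calls the replicates biological.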

Additional observations from a re-analysis of the deposited data

Results flagged for a closer look

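The ratio of reporter density in the first to the last of 5 equal parts of the chromosomes differed between viewpoints of the same libraries. Hba-a1 was higher than Slc25A37 by a mean of 1.56 and higher than Hbb-b1 by a mean of 1.97 on the log2 scale, in 18 of 18 libraries each (paired sign-flip permutation test, p = 4e-05 for both). The comparison was chosen after seeing the data, and its p covers repetition over libraries of the same loci. Leaving out 1 library at a time kept these means between 1.51 and 1.60 and between 1.93 and 2.02.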

How the results depend on the processing

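Of 645 values under alternatives for 51 results, 570 kept their direction and their side of the threshold, or moved by less than 1.5 times or 1 SD. Bins called in ∆44/48 went from 1 to 2 by listed fragments, to 0 in 5 Mb bins, to 0 with HS-38, R1, R2 or Hba-a1 alone, and to 0 with the replicate number as a block. That block changed no other count of calls. Against HS-38, the 1 bin of R2 became 0 by listed fragments, with DESeq2, in 5 Mb bins and without the 100 leading fragments, 2 with all 6 samples of experiment 1 and 7 with all reporters as library size. The 2 bins of Hba-a1 became 0 under the same first 4 settings, 4 with all reporters as library size and 1 with no replicate block for the shared sample. Chromosomes called went from 0 to 1 with all 6 samples for both R2 and Hba-a1. With all reporters, cis included, as library size, they became 19 for R2, 17 for Hba-a1 and 9 for ∆θ1, and 1 for ∆θ1 at a threshold of 0.05. Against Slc25A37, the 177 bins became 289 at a threshold of 0.05 and 317 with all 6 samples, and against Hbb-b1 the 480 became 229 with DESeq2 and 267 in 5 Mb bins. By listed fragments, the trans share reversed to −2.37 points in ∆44/48, −1.54 in ∆θ1 and −0.16 in ∆θ1θ2, and to −0.047 in ∆θ1θ2 without the 100 leading fragments. Without the 100 leading fragments, 167 bins and 10 chromosomes passed against Slc25A37 and 481 bins against Hbb-b1. The cause of these shifts was not tested.

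With 1 replicate left out, bins called were 1 to 4 in ∆44/48 (4 without ∆44/48 replicate 1), 0 to 1 for Hba-a1, 108 to 137 against Slc25A37 and 317 to 327 against Hbb-b1, and chromosomes called were 0 to 5 in ∆44/48, 0 to 8 against Slc25A37 (0 without WT replicate 1) and 11 to 13 against Hbb-b1. Differences of the trans share ran from −2.67 to 5.85 in ∆44/48 and up to 0.648 in ∆θ1θ2, those of reporters per listed fragment from −0.0164 to 0.0544 in ∆θ1, and those of the gene-density ratio from −0.311 to 0.263 in ∆44/48 and −0.261 to 0.490 in ∆θ1θ2. Those of the position ratio ran from −0.505 to 0.0739 in ∆θ1 and −0.0194 to 0.321 in ∆θ1θ2, and those of the X share from −0.107 to 0.182 in ∆44/48, −0.121 to 0.367 in ∆θ2 and −0.115 to 0.741 in ∆θ1θ2. DESeq2 could not be fitted for the chromosomes of R2 against HS-38. Experiment 2 had 652 to 1419 bins with enough reporters to test, against 2450 in ∆44/48.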
